A study of Mus musculus with 8 samples.

Results

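The Sox transcription factors described here are 10 genes, Sox1, Sox2, Sox3, Sox4, Sox5, Sox6, Sox8, Sox9, Sox11 and Sox21, chosen by gene symbol among the 55385 genes of a mouse expression table. Their RNA was measured in NSPCs, the neural stem and progenitor cells of the brain, obtained by cell sorting from P7 mouse cortex (postnatal day 7). The 4 libraries called iKO came from Nestin-CreERT2; Ash2lf/f; tdTomato mice, and the 4 called WT from Nestin-CreERT2; tdTomato mice. Both groups therefore carried the inducible Cre under the Nestin promoter and the tdTomato reporter, and the floxed Ash2l allele was in the iKO group. When and how Cre was induced is not given in the sources used here. Libraries were named biological replicates, without saying whether each came from 1 animal, so the p-values reflect the spread among the libraries, part of which may be technical. All levels are TPM, a share of transcripts scaled to a fixed total, which are scaled for transcript length and can be compared between genes.

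SOX proteins bind DNA through a shared domain, the HMG box, and are sorted into subfamilies by its sequence. In the developing brain the SOXB1 proteins SOX1, SOX2 and SOX3 maintain neural progenitors, the SOXB2 protein SOX21 counteracts them, and the SOXC proteins SOX4 and SOX11 act in cells committed to the neuronal fate. The SOXE proteins SOX8, SOX9 and SOX10 act in glia, SOX9 also in neural stem cells, and the SOXD proteins SOX5 and SOX6 modulate other SOX proteins. ASH2L, the product of the targeted gene, belongs to the enzyme complexes that add methyl groups to histone H3 lysine 4 at active promoters.

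The coding sequences of the HMG box are shown because members this alike could share reads. Each line is the sense strand, 5′ to 3′, of 70 codons (210 bases) that start at the conserved first motif of the box, read from the longest coding transcript that holds it in GENCODE M21. Capitals mark the bases that differ from Sox11 at the same position.
Sox11: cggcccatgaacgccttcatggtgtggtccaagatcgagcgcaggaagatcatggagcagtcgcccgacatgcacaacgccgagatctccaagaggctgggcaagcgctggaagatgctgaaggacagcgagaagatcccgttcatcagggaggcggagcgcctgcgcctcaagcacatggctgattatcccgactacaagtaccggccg
Sox4: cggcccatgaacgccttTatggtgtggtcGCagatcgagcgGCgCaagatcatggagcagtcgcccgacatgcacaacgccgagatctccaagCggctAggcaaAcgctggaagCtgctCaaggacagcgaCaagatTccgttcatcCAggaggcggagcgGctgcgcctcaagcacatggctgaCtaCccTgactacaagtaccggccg
Sox2: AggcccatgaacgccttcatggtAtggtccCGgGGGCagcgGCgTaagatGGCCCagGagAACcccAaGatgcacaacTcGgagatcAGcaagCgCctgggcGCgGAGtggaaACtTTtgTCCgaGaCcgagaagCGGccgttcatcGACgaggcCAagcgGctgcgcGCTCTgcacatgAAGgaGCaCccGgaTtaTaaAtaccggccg
Sox9: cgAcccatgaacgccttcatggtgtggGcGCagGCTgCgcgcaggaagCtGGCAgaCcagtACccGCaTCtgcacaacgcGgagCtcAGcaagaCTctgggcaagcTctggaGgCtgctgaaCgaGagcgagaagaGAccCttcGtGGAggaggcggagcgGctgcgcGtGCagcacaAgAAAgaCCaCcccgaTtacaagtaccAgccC
Sox6: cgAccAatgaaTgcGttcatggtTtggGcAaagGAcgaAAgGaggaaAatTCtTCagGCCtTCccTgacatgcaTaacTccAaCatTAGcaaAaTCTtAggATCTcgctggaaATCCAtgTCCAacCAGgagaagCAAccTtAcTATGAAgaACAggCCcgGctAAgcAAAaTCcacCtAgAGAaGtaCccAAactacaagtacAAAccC
Over these 210 bases, Sox4 had the same base as Sox11 at 191 positions (91.0%), Sox9 at 158 (75.2%), Sox2 at 144 (68.6%) and Sox6 at 122 (58.1%). Among the 45 pairs of members the identity ran from 52.9% to 91.0%, with a median of 69.0%, and Sox4 with Sox11 was the most alike pair. The longest run of bases that the Sox4 and Sox11 transcripts had exactly in common was 48 bases, the longest of any pair, against reads of 150 bases from each end. How the authors' quantifier treated reads that fit several genes is not given in the sources used here.

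In GENCODE M21, Sox1, Sox2, Sox3, Sox4, Sox11 and Sox21 each have 1 transcript with 1 exon. Sox9 has 1 transcript of 3 exons, Sox8 has 3 transcripts, Sox5 has 14 and Sox6 has 16. Sox11, Sox3 and Sox9 overlap no other gene there. Sox2 lies inside an intron of the long noncoding RNA gene Sox2ot on the same strand, and Sox1 lies likewise inside Sox1ot, apart from 86 exon bases that Sox1 shares with the small RNA gene Gm25239. On the opposite strand, Gm26735 covers 54.6% of the exon bases of Sox4, Gm4675 covers 18.8% of those of Sox21, the gene Cerox1 covers 10.6% of those of Sox8 and Sox5os1 covers 9.25% of those of Sox5. The strand setting of the counting is not given, so without it the reads of these overlapping pairs cannot be told apart. Gm26735 was not analysed here.

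The promoter windows that RefSeq gives for GRCm38.p6 (300 bases each, from 250 before to 50 after a start) held entries for 8 of the 10 members, all but Sox3 and Sox9. The number of CG dinucleotides, which read the same on both strands, was 37 for Sox1, 27 for Sox2, 22 for Sox21, 21 each for Sox11 and Sox8 and 12 for Sox4. Sox5 had 3, and the 6 windows of Sox6 had 2 to 13. The median of all 32851 windows was 7, so the windows of Sox1, Sox2, Sox21, Sox11, Sox8 and Sox4 were richer in CG than most. That of Sox5 was poorer, and those of Sox6 lay on both sides of the median.

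As a check of the labels, Ash2l stood between 6.11 and 7.69 TPM in the iKO libraries and between 16.1 and 19.2 TPM in the WT libraries (log2 fold change -1.20, SE 0.0797, limma adjusted p = 3.82e-06). TPM keeps no sequencing depth, which is therefore unknown here. Per library, between 16089 and 16616 genes reached 1 TPM. Radial glia and stem cell markers were present, with a summed level over the iKO libraries of 3896 to 3980 TPM (WT: 4615 to 4715 TPM) for 14 genes, and 13 of them passed the filter. Other cell types moved with the groups. Endothelial markers summed to 1032 to 1096 TPM in iKO (WT: 585 to 614 TPM), with 11 of 12 higher and none lower. Blood cell markers summed to 741 to 859 TPM in iKO (WT: 81.5 to 94.4 TPM), with 8 of 8 higher. Microglia markers summed to 611 to 635 TPM in iKO (WT: 730 to 782 TPM), with 7 of 10 lower and 1 higher. Astrocyte markers summed to 5289 to 5517 TPM in iKO (WT: 7693 to 7939 TPM), with 10 of 12 lower and 1 higher. Of all genes tested, 20.7% were higher and 31.9% lower. None of these markers was listed at 0 in every library. The Y-linked genes Ddx3y, Eif2s3y, Kdm5d and Uty were all lower in iKO, at a summed 53.9 to 73.4 TPM against 135 to 163 TPM. The part of these differences in the Sox results was not tested. A sex score is given below, but it went with genotype, so its fit cannot tell their parts apart. In bulk RNA fewer cells of a type and less RNA per cell cannot be told apart.

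The iKO libraries had lower Sox11, Sox6, Sox5, Sox9 and Sox1 RNA and higher Sox4 RNA. The falls of Sox1 and Sox5 did not pass in the authors' deposited comparison (adjusted p 0.102 and 0.803). That of Sox1 was also lost under other settings given below. All 10 members passed the filter of 1 TPM in at least 4 libraries. Of these, 6 changed at a limma adjusted p under 0.05, against 52.6% of all 16413 genes tested. By direction 1 of 10 rose (all genes: 20.7%) and 5 of 10 fell (all genes: 31.9%). The TPM of the 2 groups did not overlap for Sox4, Sox6, Sox9 and Sox11, 4 of 10 members, against 49.2% of all genes. The members were thus called about as often as genes in general. Their median log2 fold change was -0.22, and that of all tested genes was -0.06. The sizes differed more. The absolute log2 fold change of Sox11 was larger than that of 93.9% of tested genes and the one of Sox6 larger than 90.6%, while the change of Sox9 was larger than 30.8% and that of Sox8 than 3.12%.

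The members spanned more than 2 orders of magnitude in level. In WT the order from high to low was Sox11, Sox9, Sox4, Sox5, Sox8, Sox6, Sox1, Sox2, Sox21 and Sox3. The values of Sox9 and Sox4 overlapped there, and every other pair of neighbours was separated in all libraries. In iKO the order began with Sox4, Sox9 and Sox11 and was the same after them, and no neighbours overlapped. Sox2, a usual marker of these cells, was low, at 6.33 to 8.63 TPM over the 8 libraries, while its host gene Sox2ot stood at 143 to 162 TPM. Sox2 was thus at 0.0411 to 0.0543 of the Sox2ot level in each library, and whether reads of one were assigned to the other was not tested.

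**Figure D1:**
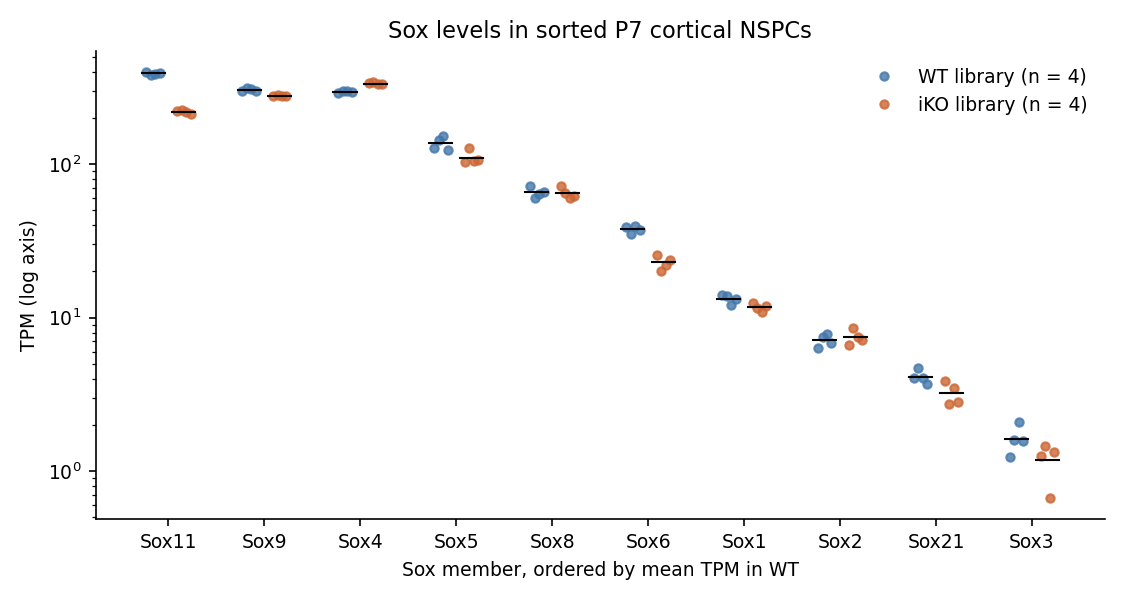
TPM (log axis) of the 10 Sox members in each WT (blue) and iKO (orange) library, with a black line at the mean of 4 libraries. Sox11 led in WT and Sox4 in iKO, and the groups were apart for Sox11, Sox9, Sox4 and Sox6.

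The largest change among the members was in the SOXC subfamily. Sox11 (ENSMUSG00000063632.6), which promotes the neuronal programme in committed precursors, stood at 399, 383, 388 and 394 TPM in WT replicates 1 to 4 and at 222, 224, 218 and 214 TPM in iKO. Every iKO value lay far below every WT value. The means were 391 ± 7.14 TPM for WT and 219 ± 4.68 TPM for iKO (SD, n = 4), so that Sox11 fell by 43.9% (log2 fold change -0.83, SE 0.0212, limma adjusted p = 1.71e-08). For Sox11 the authors' deposited table had -0.76 on the log2 scale. With its adjusted p under 0.05, that table called 2 members higher and 3 lower, 5 of 10 against 33.9% of all its 29438 genes. Those include genes below the filter that all members passed, so the 2 shares cannot be compared directly.

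Sox4 (ENSMUSG00000076431.4), whose role in neuronal precursors overlaps with that of Sox11, moved the other way. It stood at 293, 301, 302 and 295 TPM in WT and at 337, 342, 332 and 332 TPM in iKO, again without overlap. The rise was from 298 ± 4.38 to 336 ± 4.48 TPM (SD, n = 4), or 12.7% (log2 fold change 0.17, SE 0.0173, limma adjusted p = 4.60e-05). In the authors' deposited table it was 0.24. Reads of the opposite-strand gene Gm26735 could be part of this value, since the strand setting is not known. Sox12, the remaining SOXC gene, stood at 16.7 to 19.6 TPM in WT and 17.4 to 18.9 TPM in iKO, and did not pass the test. Its log2 fold change was -0.02, with a 95% interval from -0.15 to 0.10.

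The ratio of Sox4 to Sox11 within a library does not depend on the scaling factor of that library. It was 0.734, 0.787, 0.777 and 0.748 in WT and 1.52, 1.52, 1.53 and 1.56 in iKO. Sox11 was the higher of both genes in every WT library, and Sox4 in every iKO library. The mean ratio was 0.762 ± 0.0247 in WT and 1.53 ± 0.0174 in iKO (SD, n = 4).

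**Figure D2:**
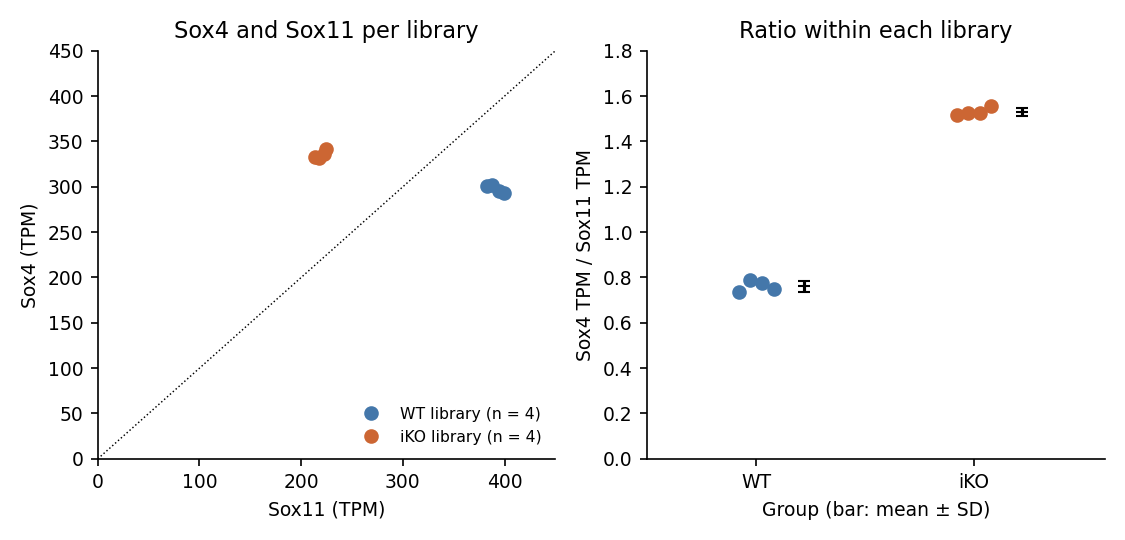
Left, Sox4 against Sox11 TPM in each library, with a dotted line of equal levels; right, their ratio per library with the group mean ± SD. The WT libraries lie below the line at ratios near 0.762 and the iKO libraries above it near 1.53.

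The progenitor genes of the SOXB1 group were low, and of these only Sox1 passed the test. Sox1 (ENSMUSG00000096014.1) stood at 14.1, 13.8, 12.1 and 13.2 TPM in WT and 12.5, 11.6, 10.9 and 11.8 TPM in iKO. The ranges overlapped at 1 library of each group. Its log2 fold change of -0.17 (SE 0.0611) passed at a limma adjusted p of 0.0457, next to the threshold. That call did not hold with trimmed mean of M values factors (log2 fold change -0.10, adjusted p = 0.196), with median of ratios factors (-0.11, 0.182), with quantile normalization (-0.08, 0.309), in the authors' deposited table (-0.13, 0.102), and when any 1 of iKO replicates 2, 3 or 4 or WT replicates 1, 2 or 4 was left out (adjusted p 0.0751 to 0.114).

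Sox2 (ENSMUSG00000074637.7) stood at 6.33, 7.51, 7.85 and 6.88 TPM in WT and 6.62, 8.63, 7.49 and 7.18 TPM in iKO. The groups were interleaved, and Sox2 did not pass the test: its log2 fold change was 0.06, with a 95% interval from -0.15 to 0.26. Sox3 (ENSMUSG00000045179.9) was the lowest member, at 1.23 to 2.10 TPM in WT and 0.673 to 1.45 TPM in iKO. Its log2 fold change of -0.27 had an interval from -0.62 to 0.07 and did not pass. The authors' deposited table gave -0.45 for Sox3 (adjusted p = 0.363), so a change of that size is not excluded. The host RNA Sox2ot had a mean of 150.2 ± 5.31 TPM in WT and rose to 159 ± 2.91 TPM (SD, n = 4). Its log2 fold change was 0.08 (limma adjusted p = 0.0367). That call held under 10 alternatives and was lost under 9. It was lost after quantile normalization (adjusted p = 0.698). Leaving out any 1 of 5 libraries also lost it (adjusted p 0.067 to 0.0865). Those 5 were iKO replicates 1, 2 and 4 and WT replicates 1 and 3. The rise was larger with trimmed mean factors (0.15, adjusted p = 0.00125) and median of ratios factors (0.15, 0.00152). The authors' deposited table gave 0.21 for Sox2ot (adjusted p = 4.68e-16). Sox1ot did not pass (9.69 TPM in WT, 9.67 TPM in iKO).

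Sox21 (ENSMUSG00000061517.8), the SOXB2 member, stood at 4.02, 4.68, 4.03 and 3.72 TPM in WT and 3.89, 2.72, 3.49 and 2.81 TPM in iKO. Only the highest iKO library reached into the WT range. The log2 fold change was -0.28 (SE 0.108), and it missed the threshold (limma adjusted p = 0.0549). Without iKO replicate 1, that highest library, it passed at -0.35 (adjusted p = 0.0236). Its opposite-strand neighbour Gm4675 stood at 7.82 TPM in WT and 9.15 TPM in iKO and did not pass. Sox14, the other SOXB2 gene, was listed at 0 in all 8 libraries.

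Both SOXD members fell in TPM, but far less in the authors' own comparison. Sox6 (ENSMUSG00000051910.13), which restrains oligodendrocyte differentiation, stood at 39.3, 35.3, 39.7 and 37.2 TPM in WT and 25.7, 20.2, 22.1 and 23.9 TPM in iKO. The groups were well apart. It fell by 39.3%, a log2 fold change of -0.70 (SE 0.0733, limma adjusted p = 5.90e-05). In the authors' deposited table the log2 fold change of Sox6 was -0.13 (adjusted p = 0.00339).

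Sox5 (ENSMUSG00000041540.16), which acts with Sox6 and in the specification of deep-layer cortical neurons, stood at 127, 144, 153 and 124 TPM in WT and 103, 127, 105 and 106 TPM in iKO. Replicate 2 of the iKO group stood above the other iKO libraries and inside the WT range. The fold change was -0.31 on the log2 scale (SE 0.0860, limma adjusted p = 0.0153). For Sox5 the authors' deposited table gave -0.01 (adjusted p = 0.803). Across all tested genes the deposited fold changes exceeded those from TPM by a median of 0.07. The excess was 0.58 for Sox6 and 0.30 for Sox5, farther from that median than for 95.7% and 84.9% of genes, while for Sox11, Sox9, Sox4, Sox2 and Sox1 it was 0.07, 0.07, 0.06, 0.07 and 0.04. It was 0.12 for Sox8 and -0.03 for Sox21. For the low single-transcript gene Sox3 it was -0.17, farther from the median than for 86.3% of genes. With a pseudocount of 0.1, however, Sox3 had -0.46, near its deposited -0.45. Sox6 and Sox5 then had -0.72 and -0.31, still far from their deposited values. Sox6 and Sox5 are the members with the most annotated transcripts, whose part in the gap was not tested.

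**Figure D3:**
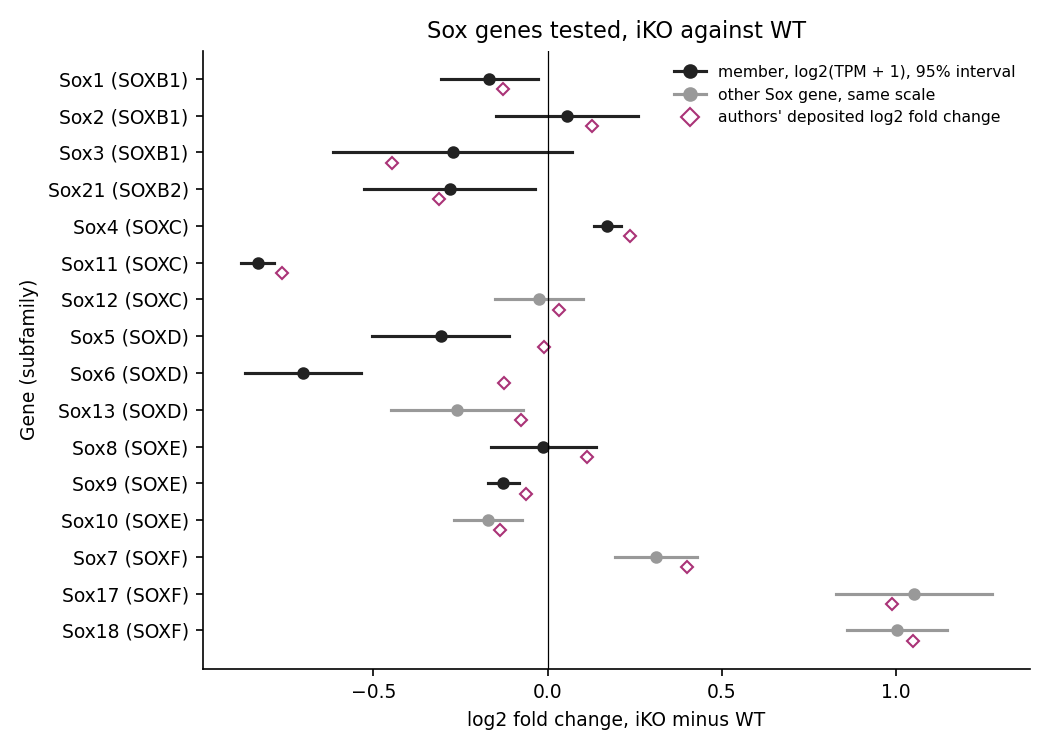
Log2 fold change, iKO minus WT, of the 16 Sox genes that were tested, with limma's 95% interval on the log2(TPM + 1) scale (circles and bars; members in black, other Sox genes in grey) and the authors' deposited value (open diamonds). Sox17, Sox18, Sox11 and Sox6 lie farthest from 0, and the diamonds of Sox5 and Sox6 lie far to the right of their circles.

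Of the SOXE members, Sox9 (ENSMUSG00000000567.5), needed for neural stem cells and astrocytes, was the second most abundant in both groups. It stood at 299, 313, 310.1 and 301 TPM in WT and at 279, 282, 279 and 279.9 TPM in iKO. The groups did not overlap, though the fall was 8.44% (log2 fold change -0.13, SE 0.0192, limma adjusted p = 0.000573). Trimmed mean factors brought it to -0.06 (adjusted p = 0.0167), the authors' deposited table gave -0.06, and quantile normalization gave -0.17 (adjusted p = 4.21e-05). Astrocyte markers fell in the same libraries, as given above.

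Sox8 (ENSMUSG00000024176.10), a glial gene of the oligodendrocyte lineage, stood at 71.6, 60.6, 64.1 and 66.1 TPM in WT and 72.5, 65.0, 60.6 and 62.2 TPM in iKO. The groups were interleaved and the log2 fold change was -0.01 (95% interval -0.16 to 0.14), which did not pass. The authors' deposited table gave 0.11 with an adjusted p of 0.00503. Cerox1, on the opposite strand of Sox8, fell from 48.1 to 39.9 TPM (limma adjusted p = 0.0034). Sox10, the SOXE gene that defines the oligodendrocyte lineage, fell from 34.0 ± 0.879 to 30.1 ± 1.47 TPM (SD, n = 4; log2 fold change -0.17, limma adjusted p = 0.00905). It no longer passed with trimmed mean factors (-0.10, adjusted p = 0.081) or median of ratios factors (-0.11, adjusted p = 0.0727). The call held with quantile normalization (-0.12, adjusted p = 0.0488) and in the authors' deposited table (-0.14, adjusted p = 0.0209). Of 8 oligodendrocyte precursor markers 6 fell (all genes: 31.9%) and 1 rose (all genes: 20.7%). The number that rose was 0 to 2 over the alternatives, and 0 when any library other than iKO replicate 2 was left out. Markers of oligodendrocytes themselves went the other way, summing to 220 to 236 TPM in iKO (WT: 192 to 204 TPM). Of 5 tested, 4 rose (all genes: 20.7%) and 1 fell (all genes: 31.9%).

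Among the other 10 Sox genes, 6 passed the filter, of which 3 rose (all genes: 20.7%) and 2 fell (all genes: 31.9%). The rises were all in the SOXF subfamily, whose members act in blood vessel endothelium. Sox17 stood at 16.1, 21.2, 21.5 and 22.1 TPM in WT and 43.7, 38.4, 45.2 and 43.8 TPM in iKO (log2 fold change 1.05, SE 0.0985, limma adjusted p = 2.99e-05). Sox18 rose from 23.7 ± 2.22 to 48.4 ± 0.729 TPM (SD, n = 4), and Sox7 from 16.7 ± 0.798 to 20.9 ± 1.03 TPM. Gm37587, which covers 16.8% of the exon bases of Sox17 on the opposite strand, stood at no more than 0.152 TPM. All 3 SOXF genes were above the WT range in every iKO library. The endothelial markers Cldn5, Flt1 and Esam rose in the same libraries: Cldn5 went from 335 to 627 TPM, Flt1 from 19.0 to 36.0 TPM and Esam from 48.7 to 76.6 TPM. The median log2 fold change of the 12 endothelial markers was 0.72, that of Sox7 was 0.31, and Sox18 was 2.04 times as high in iKO. How much of the SOXF rise goes with the endothelial markers was not tested.

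The other fall was in Sox13, a SOXD gene, to 0.793 of its WT mean of 4.04 TPM (limma adjusted p = 0.0268). Its call did not hold with trimmed mean factors (adjusted p = 0.0641), median of ratios factors (0.0601) and quantile normalization (0.196), in the authors' deposited table (0.723) and without any 1 of iKO replicates 1 or 4 or WT replicates 3 or 4 (0.0551 to 0.0695). Sox15 (0 to 0.396 TPM) and Sox30 (0 to 0.0452 TPM) were below the filter, and the exact permutation test gave p = 0.229 and p = 0.429. Sry was listed at 0 in all libraries. Of the RNAs at Sox loci, Sox6os reached 0.699 to 2.13 TPM in the iKO libraries, while 3 of 4 WT libraries listed it at 0 (exact permutation p = 0.114), and Sox5os2 stood at 0.266 to 0.807 TPM in every iKO library, while all WT libraries listed it at 0 (exact permutation p = 0.0286, the smallest possible; adjusted p = 0.0875 in the authors' deposited table). Among the other RNAs of the Sox5 locus, Sox5os3 was listed at 0 in iKO and reached 0.22 TPM in WT, Sox5os1 overlapped between the groups (0.101 to 0.295 TPM, exact permutation p = 0.486), and Sox5os4, Sox5os5 and Sox5it were listed at 0 in all libraries.

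Summed by subfamily, SOXC was the most abundant in both groups, and SOXC and SOXE together held most Sox RNA. All 20 Sox genes summed to 1362 to 1405 TPM in WT and 1205 to 1241 TPM in iKO. SOXC held 51.3% of this sum in WT and 46.9% in iKO, SOXE 29.4% and 30.7%, SOXD 13.0% and 11.2%, SOXF 4.40% and 9.19%. SOXB1 held 1.57% to 1.66% in WT and 1.58% to 1.74% in iKO. The SOXC sum fell from 707 ± 3.27 to 573 ± 8.84 TPM (SD, n = 4). These sums depend on the members chosen and were not tested.

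**Figure D4:**
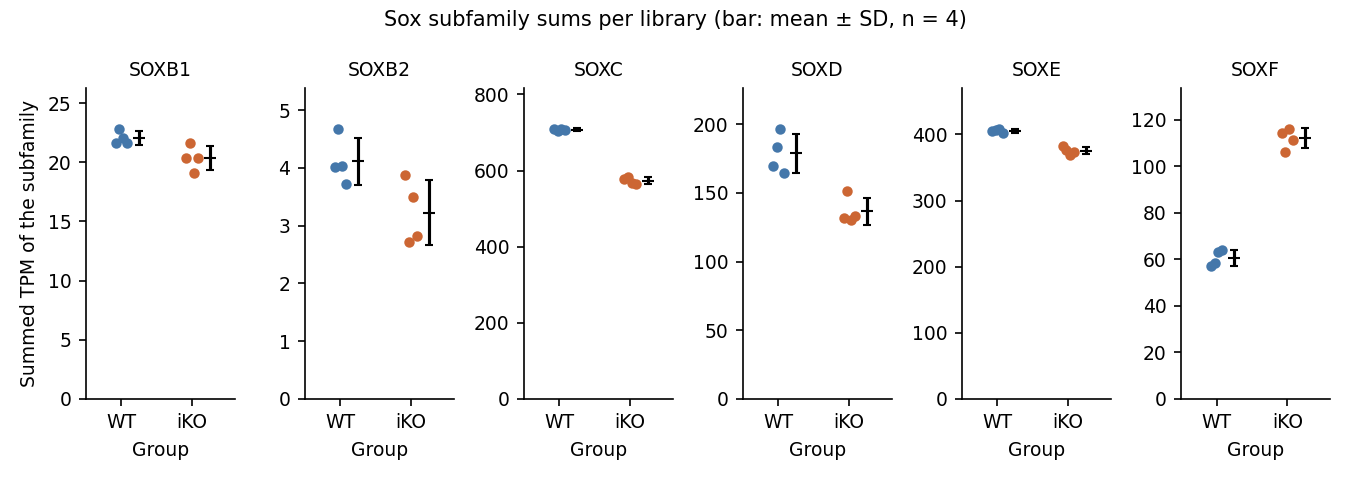
Summed TPM per library for 6 Sox subfamilies, each on its own axis from 0, with the mean ± SD of 4 libraries. The SOXC, SOXD and SOXE sums were lower in every iKO library than in every WT library and the SOXF sum was higher, while SOXB1 and SOXB2 overlapped.

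Genes linked to SOX function were then counted in lists, and the genes named are up to 4 of each list with the smallest p. Of 12 factors that bind DNA or chromatin with SOX proteins, 4 fell and 3 rose, 5 were not called, and the median log2 fold change was -0.01; the 7 calls compare with 52.6% of all genes. The nuclear factor I genes Nfix and Nfib, whose proteins act with SOX9 in gliogenesis, fell: Nfix went from 621 to 494 TPM, Nfib from 308 to 283 TPM. Chd7, a chromatin remodeller that binds SOX2, fell from 178 to 160.4 TPM, and Pou3f1 rose from 1.64 to 2.66 TPM. Chd7 no longer passed with trimmed mean factors (-0.08, adjusted p = 0.0667) or median of ratios factors (-0.08, 0.0531). The 3 rises of this list were 1 when any 1 of iKO replicates 2 or 3 or WT replicates 1, 2 or 4 was left out, and the 4 falls were 2 with either set of factors. Among 7 tested genes linked to SOXB1, 1 rose (all genes: 20.7%) and 4 fell (all genes: 31.9%), with a median of -0.23. Nes, the gene of the intermediate filament nestin whose promoter drives the Cre here, rose from 59.6 to 70.6 TPM. Fos, Mycn and Socs3 fell by 0.47, 0.32 and 0.23 on the log2 scale.

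Of 7 astroglial genes linked to SOX9, 5 fell, 1 rose and 1 did not pass (median -0.34). Fgfr3, a growth factor receptor gene, fell from 64.4 to 42.0 TPM, Mmd2 from 389.7 to 307 TPM and Zcchc24 from 34.9 to 26.5 TPM, while Apcdd1, a Wnt inhibitor gene, rose from 20.9 to 26.3 TPM. Of 6 neuronal genes linked to SOXC, 3 rose, none fell and 3 did not pass (median 0.25). Dcx and Tubb3, microtubule genes of young neurons, rose, Dcx from 137 to 185 TPM, Tubb3 from 225 to 298 TPM. Stmn1, also of young neurons, rose from 1841 to 2211 TPM. In these libraries Sox11 was lower and Sox4 higher, and neuroblast markers were higher in 9 of 12 cases and lower in 2. Tead2 stood at 32.6 TPM in WT and 38.7 TPM in iKO (adjusted p = 0.0557). It passed with each of the 3 scalings (0.29 to 0.31, adjusted p 0.0221 to 0.0353), without iKO replicate 1 (0.0499) and without WT replicate 4 (0.0084), and had 0.07 (adjusted p = 0.502) in the authors' deposited table. The SOXC-linked rises were 5 with trimmed mean or median of ratios factors. Of 7 tested oligodendrocyte lineage genes linked to SOXE, 2 rose and 3 fell (median -0.25): Mbp, a myelin gene, rose from 49.2 to 99.1 TPM, and the precursor genes Olig2, Pdgfra and Cspg4 fell from 54.0 to 41.6, 49.5 to 38.3 and 33.8 to 26.4 TPM. Each fold change named in these lists had a limma adjusted p of at most 0.00291 unless stated. For comparison, 20.7% of all tested genes rose and 31.9% fell, and their median was -0.06.

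Libraries of both groups held Y-linked and Xist RNA in different proportion. A sex score, the mean log2(TPM + 1) of the 4 Y-linked genes minus that of Xist, was between -0.82 and -0.26 in every iKO library and between 0.57 and 1.01 in every WT library, so it and genotype cannot be told apart. With the score as covariate, 2.58% of tested genes were called. Among the members that left Sox11 called (log2 fold change -0.97, limma adjusted p = 0.00116), and the calls of Sox4, Sox5, Sox6, Sox9 and Sox1 were lost (0.15, -0.59, -0.49, -0.10 and -0.20, adjusted p 0.322 to 0.736). Of the genes named from the lists linked to SOX function, Nfix, Fos, Mycn, Mmd2 and Mbp stayed called. Of the SOXF genes, Sox17 stayed called (1.87, adjusted p = 0.0176). Ash2l itself lost its call in this fit (-1.07, adjusted p = 0.142). A call kept or lost there therefore does not tell sex from genotype.

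Scaling changed the balance of calls. Without scaling, 39.3% of called genes were higher in iKO, and with trimmed mean factors 51.1%, median of ratios factors 50.3% and quantile normalization 49.7%. Sox11, Sox6, Sox5 and Sox9 fell and Sox4 rose under each of these scalings. Sox8 turned from -0.01 to 0.06, 0.05 and 0.00 and did not pass under any of them.

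**Figure D5:**
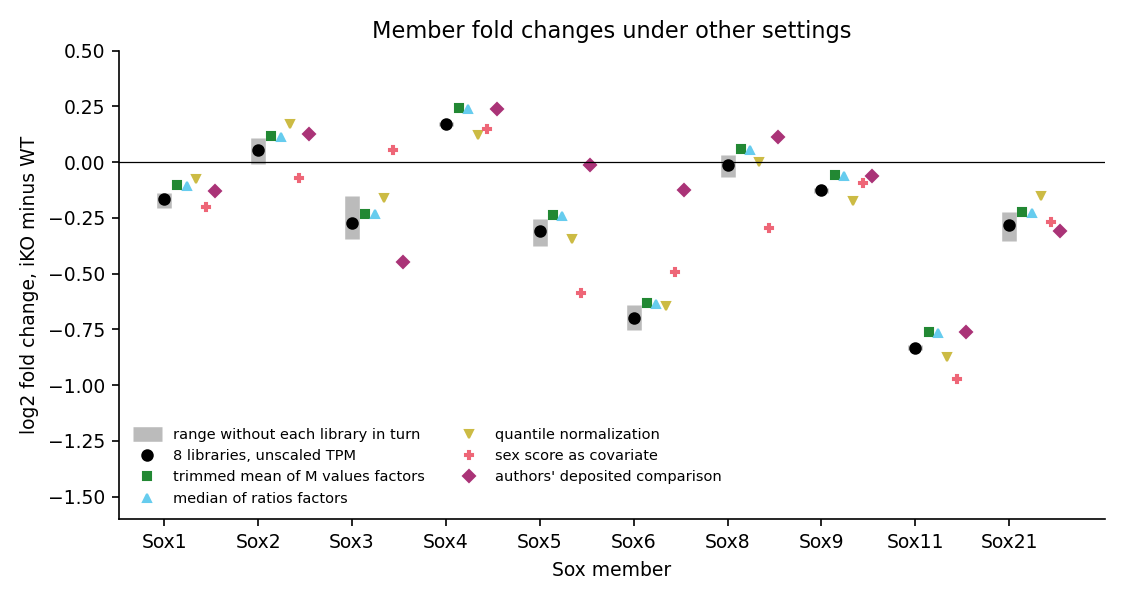
Log2 fold change of each member with all 8 libraries and unscaled TPM (black circles), its range when each library was left out in turn (grey bars), and its value under 3 other scalings, with the sex score as covariate and in the authors' deposited table (coloured symbols). Sox11 stayed between -0.97 and -0.76, while Sox5 and Sox6 spread widely.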

How the data were processed

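Smart-Seq2 cDNA of total RNA from sorted NSPCs was sequenced as paired ends of 150 bases, per the labels' protocols. The authors deposited TPM for 55385 genes in 8 libraries; each column sums to 1000000. A table of the authors' iKO against WT comparison gives, per the file headers, a mean normalized signal, a log2 fold change with its SE, a test score, and p-values. The authors' aligner, quantifier and build: not given in the sources used here.

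Groups came from the sample titles. TPM are not counts, so limma 3.58.1 (R 4.3.3; trend, robust) was fitted to log2(TPM + 1) of the 16413 genes with at least 1 TPM in at least 4 libraries, with Benjamini-Hochberg adjustment over all of them and a two-sided threshold of 0.05. Fold changes are iKO minus WT and understate the change of low genes. Genes below the filter had an exact two-sided permutation test (70 assignments, smallest p 0.0286). The procedure was tested on simulated data. All members, the other Sox genes and RNAs of Sox loci were named, and up to 4 genes of each other list by smallest p, with Ash2l; not all that qualify are printed. Overlapping genes were taken from the annotation. The members and lists were chosen with earlier results of these data known. Alternatives were 3 scalings, pseudocounts of 0.1 and 5, 2 filters, the replicate block, array weights, a sex score, each library left out, and the deposited comparison. Gene models and transcript sequences came from GENCODE M21 (GRCm38), read with Biopython 1.88.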

Additional observations from a re-analysis of the deposited data

Results flagged for a closer look

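In 46 groups of 4 libraries with any spread (a Sox gene or Sox-locus RNA in 1 group), 7 had a library that stood apart from the other 3. Chance gives about 1 in 20 where values are normal and not tied. Sox5 stood at 127 TPM in iKO replicate 2, above the other iKO libraries (103 to 106 TPM), and without it the log2 fold change was -0.38 (limma adjusted p = 0.00362). Sox17 stood at 16.1 TPM in WT replicate 1, below the other WT libraries (21.2 to 22.1 TPM), and without it the log2 fold change was 0.95 (limma adjusted p = 1.19e-05). Sox5os1 was high in replicate 4 of both groups, with 0.257 TPM (iKO) and 0.295 TPM (WT), against 0.101 to 0.132 TPM elsewhere. The other 3 were near 0: Sox15 at 0.396 TPM in WT replicate 3, Sox6os at 1.66 TPM in WT replicate 4 and Sox30 at 0.0400 TPM in iKO replicate 2, each listed at 0 in the other libraries of its group. With those tied at 0, any level above 0 was bound to stand apart, so the chance rate does not apply to these 3.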

How the results depend on the processing

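The replicate numbers do not pair the libraries. After each gene's group mean was subtracted, same-numbered libraries had correlations of -0.0445 to 0.000694. None of the 4 iKO libraries then correlated best with the WT library of its own number. Before that subtraction, libraries of different groups correlated at 0.962 to 0.964. With the replicate block, 3170 genes were higher and 4927 lower, and the members had 1 rise and 5 falls; among the Sox genes and Sox-locus RNAs only the call of Sox2ot was lost (adjusted p = 0.0579). Leaving out each library gave 3105 to 3231 genes higher and 4819 to 5041 lower, 1 member higher and 4 to 6 lower, and 3 other Sox genes higher and 1 to 2 lower. With the sex score as covariate, 195 genes were higher and 228 lower, 0 members higher and 1 lower, and 1 other Sox gene higher and 0 lower. The authors' deposited table called 2 members higher (Sox4 and Sox8) and 3 lower, and 1 other Sox gene lower. Other Sox genes lower numbered 0 with trimmed mean or median of ratios factors, 1 with quantile normalization and 1 at a mean TPM of at least 5. The cause of these differences was not tested. Sox8, not called from TPM, was called in the opposite direction in the authors' deposited table (0.11). With the sex score, the direction of called genes reversed for Sox10 (0.0063), Cspg4 (0.10), Hbb-bt (-0.53), Uty (0.34) and Kdm5d (0.61), the last 2 being part of that score. Depth is unknown, so counting error could not be given for low members such as Sox3 and Sox21.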
